A study of Mus musculus with 10 samples.

Results

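The acyl-CoA thioesterases were examined as 10 genes of the deposited kidney count table, found by symbol: Acot1, Acot2, Acot3, Acot4, Acot5, Acot6, Acot7, Acot8, Acot12 and Acot13. All 10 of the 10 symbols were among the 24062 genes of the table, and all 10 passed the filter on low counts, which kept 15547 genes. The series measured polyadenylated RNA of mouse kidneys, those of the genotype comparison from adults. It held 4 Ehhadh knockout (KO) and 4 wild-type (WT) male animals of C57BL/6N background. A single DBA_2J and a single 129S2_SvPasCrl library, both labelled wild type for Ehhadh, were added to these. The Ehhadh allele, the ages in weeks and the feeding state are not given in the sources used here, nor are sex and age stated separately for the animals of the added strains. Ehhadh encodes the L-bifunctional enzyme of peroxisomal fatty acid β-oxidation.

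Acyl-CoA thioesterases split an acyl-CoA into a free fatty acid and coenzyme A, and so set how much of each is held as the thioester in a given compartment. Acot1 to Acot6 encode closely related proteins of the α/β-hydrolase fold and lie side by side in mouse, while Acot7, Acot8, Acot12 and Acot13 encode unrelated proteins of the hotdog fold. In mouse, Acot1 acts on long-chain acyl-CoA in the cytosol, Acot2 does so in the mitochondrial matrix, and Acot3, Acot4, Acot5, Acot6 and Acot8 are peroxisomal. Acot1 and Acot2 are known from liver and heart as genes that the fatty acid receptor PPARα switches on. For the comparison of compartments Acot1, Acot7 and Acot12 were taken as cytosolic and Acot2 and Acot13 as mitochondrial, which follows the main site of each enzyme.

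Total counts ran from 41488104 to 52302788 in the KO libraries and from 19790430 to 35988299 in the WT libraries, without overlap, and the added strains had 57250374 (DBA_2J) and 51192407 (129S2_SvPasCrl). Levels are given as CPM, counts scaled to a common library total after TMM correction, over all 10 libraries. Ehhadh read 175 to 327 CPM in the KO and 2087 to 3416 CPM in the WT libraries, so each library lay on the side of its label. The DBA_2J and 129S2_SvPasCrl libraries read 795 and 788 CPM of Ehhadh. Summed markers of the proximal tubule, the segment that makes up most of the kidney cortex, ran from 16446 to 24220 CPM in all 10 libraries.

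The 6 clustered genes lie on the plus strand of chromosome 12 (mm10) in the order Acot2 (83987861 to 83993875), Acot1 (84009502 to 84017669), Acot4 (84038379 to 84044723), Acot3 (84052151 to 84059564), Acot5 (84069325 to 84076019) and Acot6 (84100654 to 84109783). The likeness of their transcripts bears on every value below, because reads of 100 bases were counted at their primary alignment. Acot1 and Acot2 transcripts aligned over 1330 bases with 94.3% identity. Of the 100-base windows of the Acot2 transcript, 17.1% occurred letter for letter in Acot1, and of those of the Acot1 transcript 21.9% occurred in another gene's transcript. The share was 14.3% for Acot3, 8.32% for Acot5, 1.70% for Acot6 and 0.36% for Acot4. Of the 478 shared windows of Acot3, 330 occurred in Gm49366, which is not among the 6 clustered genes. The value for Acot3 is therefore not likeness to the clustered genes alone. No window of Acot7, Acot8, Acot12 or Acot13 occurred in another gene. Those shares are of whole transcripts, and the share of counts that is ambiguous was not measured. Transcripts were longer than the counted exons for Acot1 (2272 against 1558 bases) and Acot3 (3431 against 2593). The same held for Acot4 (6203 against 2325) and Acot6 (3622 against 1822), so the ambiguity can exceed the shares given. A read from a shared window cannot be assigned to 1 gene, which leaves single values of Acot1, Acot2, Acot3 and Acot5 uncertain. One such window, coding sequence in exon 3 of Acot1 (chr12:84017060-84017159, plus strand, GRCm38, GENCODE M21 transcript), is the same in Acot2 and shows how a read can fail to tell the pair apart:
Acot1 and Acot2: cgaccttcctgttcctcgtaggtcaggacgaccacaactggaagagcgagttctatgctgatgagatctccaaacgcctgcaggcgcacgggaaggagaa

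The first comparison asked whether the thioesterase genes change when Ehhadh is lost. One of the 10 members was lower in KO and none was higher, and the other 9 did not pass the test. Acot12, which encodes a cytosolic enzyme that hydrolyses acetyl-CoA and is abundant in liver and kidney, was the member that fell. Over all genes 11% were called (edgeR quasi-likelihood test, Benjamini-Hochberg adjusted p under 0.05; 6.32% higher and 4.68% lower), so 1 of 10 members is near the background. The median log2 fold change of the members was −0.05, against −0.01 over all tested genes, with 7 members below 0 and 3 above.

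Acot12 (chromosome 13, 91741521 to 91786148, plus strand) read 302, 295, 280 and 287 CPM in the KO libraries and 357, 324, 334 and 325 CPM in the WT libraries. Every KO library was below every WT library, which was so for 8.18% of all tested genes (17.7% counting either direction). The KO mean was 291 CPM (SD 9.72, n = 4) and the WT mean 335 CPM (SD 15.1, n = 4). The log2 fold change was −0.20 (SE 0.06; 95% interval −0.32 to −0.08; edgeR adjusted p = 0.0417), a fold of 0.870. The call was lost with any 1 of the 8 libraries left out (adjusted p = 0.0553 to 0.108 in edgeR). The difference itself was −0.22 in animals with a leading E in their titles and −0.19 in those without, and a second tool, DESeq2, also called it (adjusted p = 0.00515).

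Markers of tubule segments moved in the same comparison. Of 14 proximal tubule markers 3 were called lower in KO and none higher, with a median log2 fold change of −0.24, and their summed level was 16446 to 18792 CPM in KO and 18843 to 19654 CPM in WT. Of 10 markers of the loop and distal segments 7 were called lower, with a median of −0.53, where 4.68% of all tested genes were called lower. Their part in the Acot12 difference was not tested, and in bulk RNA fewer cells of a type and less RNA per cell cannot be told apart. A gene on the opposite strand, 4833422C13Rik, overlaps 140 exon bases of Acot12, and the counting used no strand. Its whole count equalled 4.99% to 7.59% of that of Acot12 in the 8 libraries, and it did not pass the test (log2 fold change 0.13, edgeR adjusted p = 0.414).

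**Figure D1:**
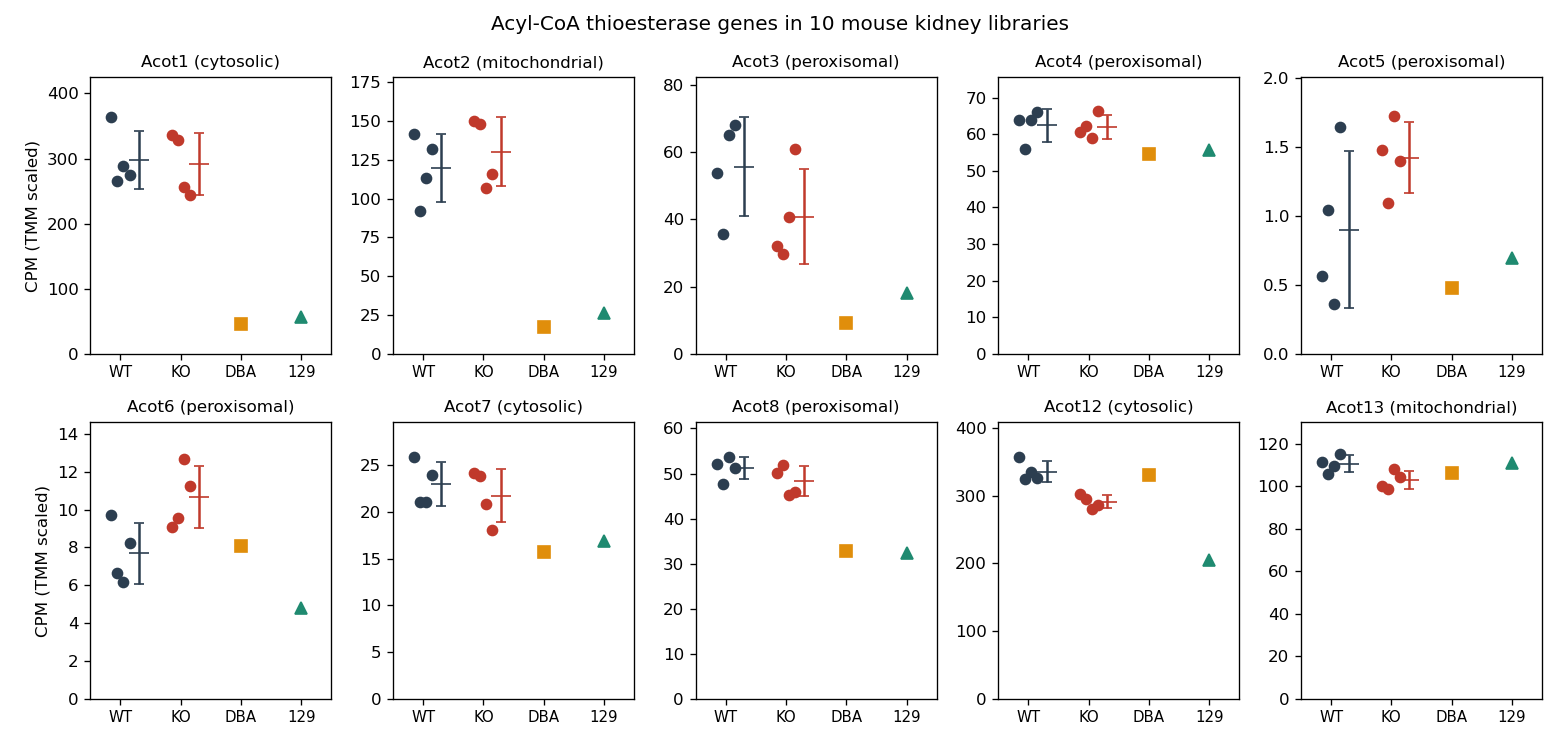
CPM of each thioesterase gene (y axis, starting at 0, scaled separately for each gene) in the 4 WT and 4 KO libraries of C57BL/6N (circles, with the mean and SD beside them) and in the single DBA_2J (square) and 129S2_SvPasCrl (triangle) libraries. Acot12 parts KO (280 to 302 CPM) from WT (324 to 357 CPM), and Acot1, Acot2 and Acot3 are far lower in both strain libraries than in any C57BL/6N library.

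The other cytosolic members did not pass. Acot1 read 336, 328, 256 and 245 CPM in KO and 364, 265, 289 and 275 CPM in WT, with a log2 fold change of −0.03 (SE 0.13; 95% interval −0.31 to 0.25; edgeR adjusted p = 0.913). The highest library was a WT one and the lowest a KO one, and the groups overlapped. Acot7, whose enzyme hydrolyses arachidonoyl-CoA and is best known from brain, read 18.1 to 24.2 CPM in KO and 21.1 to 25.9 CPM in WT (−0.07, SE 0.11).

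Both mitochondrial members overlapped between genotypes. Acot2 read 150, 148, 107 and 116 CPM in KO and 142, 91.9, 113 and 132 CPM in WT, with a log2 fold change of 0.13 (SE 0.14; 95% interval −0.19 to 0.44; edgeR adjusted p = 0.635). In KO the libraries with a leading E in their titles were the lower ones, for Acot2 as for Acot1. Acot13, also known as Them2 and associated with mitochondria and with the cytosol, read 98.8 to 108 CPM in KO and 106 to 115 CPM in WT (−0.10, SE 0.05; edgeR adjusted p = 0.268).

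The 5 peroxisomal members had the widest range of differences, and none was called. Acot6, whose mouse enzyme acts on branched phytanoyl- and pristanoyl-CoA, read 9.08, 9.57, 12.7 and 11.3 CPM in KO and 9.70, 6.66, 6.17 and 8.22 CPM in WT. One WT library lay within the KO range, and the other WT libraries lay under it. The log2 fold change was 0.48 (SE 0.16; 95% interval 0.14 to 0.83; edgeR adjusted p = 0.0727). It passed in edgeR without that WT library, replicate 1 (adjusted p = 0.0396), and in DESeq2 with all libraries (0.0271).

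Acot3, a long-chain thioesterase, read 32.1, 29.7, 40.6 and 60.9 CPM in KO and 53.8, 35.7, 65.2 and 68.2 CPM in WT. It varied more within each group than any other member above 2 CPM, with a coefficient of variation of 34.7% in KO and 26.4% in WT. Its log2 fold change was −0.44 (SE 0.23; 95% interval −0.96 to 0.07; edgeR adjusted p = 0.261). Without KO replicate 4, the highest KO library, it was −0.70 and passed (adjusted p = 0.0436). Animals with a leading E in their titles read more Acot3 in both genotypes, with a KO mean of 50.7 CPM and a WT mean of 66.7 CPM, than those without, with means of 30.9 and 44.7 CPM (2 libraries each). The labels do not say what the title form marks.

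Acot4, which in mouse hydrolyses succinyl-CoA, an end product of the peroxisomal shortening of dicarboxylic acids in which Ehhadh takes part, read 58.9 to 66.5 CPM in KO and 55.9 to 66.0 CPM in WT. Its log2 fold change was −0.01 (SE 0.07; 95% interval −0.15 to 0.14; edgeR adjusted p = 0.972). Acot8, a thioesterase of broad chain-length range, read 45.2 to 52.0 CPM in KO and 47.8 to 53.7 CPM in WT (−0.08, SE 0.07; edgeR adjusted p = 0.485). Both groups overlapped for either gene. Acot5, a medium-chain thioesterase, was near the limit of measurement, with 46 to 80 counts in KO and 11 to 52 counts in WT. Its log2 fold change of 0.65 (SE 0.39; edgeR adjusted p = 0.333) had a 95% interval from −0.22 to 1.52.

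For 7 of the 10 members the 95% interval lay within 1.5-fold in either direction; the exceptions were Acot3, Acot5 and Acot6. Median log2 fold changes were −0.07 for the 3 cytosolic, 0.01 for the 2 mitochondrial and −0.01 for the 5 peroxisomal members. A test of genotype by title form called 0 genes in edgeR (without adjustment 1004 of 15547 fell under 0.05; this was fitted in edgeR alone), and of the members Acot8 had the smallest unadjusted p, at 0.0496.

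**Figure D2:**
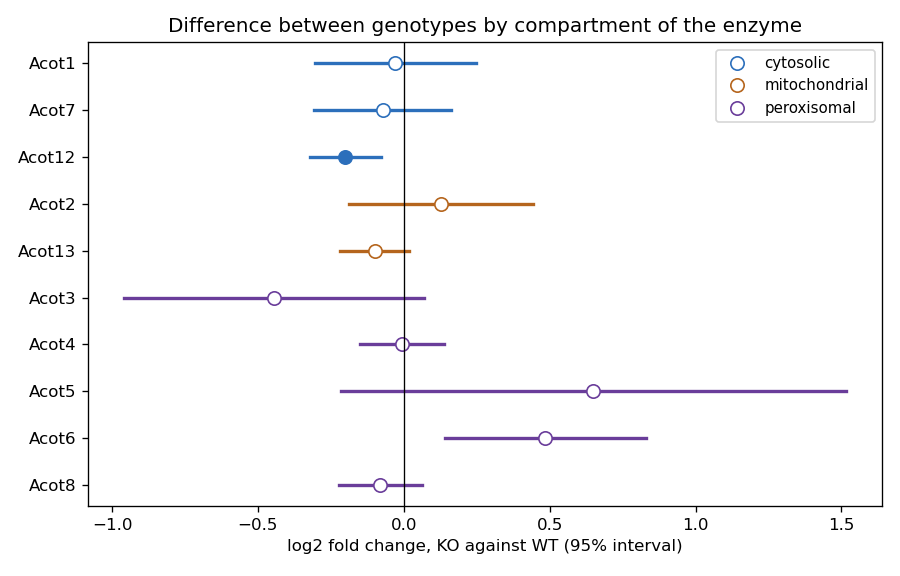
Log2 fold change of KO against WT for each member (x axis; edgeR, 4 libraries per genotype) with its 95% interval, grouped by compartment of the enzyme. The filled circle marks Acot12 (−0.20), the member that was called, and open circles mark the 9 that were not; the intervals of Acot3, Acot5 and Acot6 are the wide ones.

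Levels of different genes were compared per kb of exon. In WT the order was Acot1 (191 ± 28.7 CPM per kb), Acot13 (161 ± 5.93), Acot12 (110.0 ± 4.96), Acot2 (54.5 ± 10.03), Acot8 (44.5 ± 2.19), Acot4 (26.9 ± 1.92), Acot3 (21.5 ± 5.67), Acot7 (12.4 ± 1.27), Acot6 (4.22 ± 0.88) and Acot5 (0.594 ± 0.377; SD, n = 4 for each). The WT libraries overlapped between the neighbours Acot2 and Acot8, Acot4 and Acot3, and Acot3 and Acot7, and for no other neighbours in that order. The order of the KO means was the same.

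By compartment, cytosolic members held 50.0% ± 2.38 of the summed level per kb in WT and 49.3% ± 2.89 in KO. Mitochondrial members held 34.4% ± 1.40 in WT and 35.3% ± 1.42 in KO, and peroxisomal members 15.6% ± 1.20 and 15.4% ± 1.62 (SD, n = 4 each). The summed level of all members was 627 ± 50.6 CPM per kb in WT and 594 ± 36.1 in KO. The libraries of both genotypes overlapped in every share and in the sum. The peroxisomal share thus moved by less than the spread between replicates in kidneys without the peroxisomal enzyme Ehhadh.

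**Figure D3:**
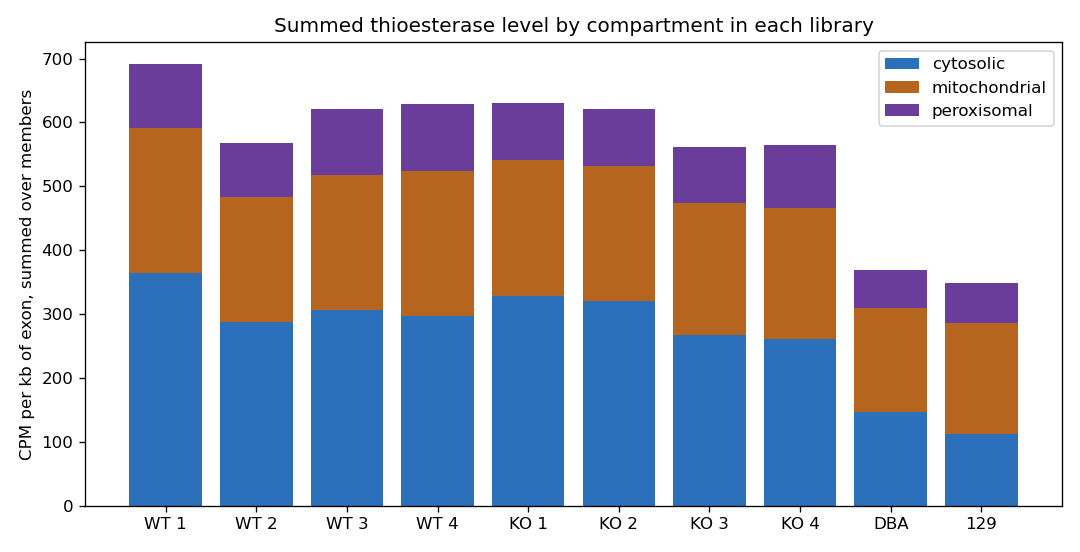
Summed level of the members per kb of exon (y axis, CPM per kb) in each library, stacked by compartment of the enzyme. WT and KO libraries of C57BL/6N reach 562 to 691 CPM per kb, while the DBA_2J and 129S2_SvPasCrl libraries reach 369 and 348.

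The second comparison set the single libraries of DBA_2J and 129S2_SvPasCrl beside the WT libraries of C57BL/6N. With 1 animal per strain there is no test, and strain cannot be told apart from anything else that differed between those animals and the C57BL/6N group. Acot1, Acot2 and Acot3 were far lower in both, and the other members differed little or moderately. Acot1 read 46.3 CPM in DBA_2J and 56.3 CPM in 129S2_SvPasCrl, against 265 to 364 CPM in WT, 6.44-fold and 5.29-fold under the WT mean. Acot2 read 17.1 and 26.2 CPM against 91.9 to 142 CPM, 6.996-fold and 4.56-fold lower. Acot3 read 9.14 and 18.0 CPM against 35.7 to 68.2 CPM, 6.10-fold and 3.10-fold lower. For each of the 3 genes both strain libraries were also below all KO libraries.

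Those 3 genes were the members that lay under the WT mean by a log2 difference of 1 or more, and they were the same in DBA_2J (3 of 10, against 8.27% of tested genes) and in 129S2_SvPasCrl (3 of 10, against 6%). Counting either direction, 12.9% and 9.78% of tested genes differed by as much. In both at once it was 3 of 10 members against 3.2% of tested genes. No member was higher by as much in either (4.61% and 3.78% of tested genes). Acot4, which lies between Acot1 and Acot3 on the chromosome, read 54.5 and 55.8 CPM, just under the lowest WT library (55.9 CPM). Acot6, at the end of the same cluster, read 8.11 CPM in DBA_2J, within the WT range of 6.17 to 9.70 CPM, and 4.804 CPM in 129S2_SvPasCrl, under it.

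Peroxisomal Acot8 read 32.8 and 32.3 CPM in the DBA_2J and 129S2_SvPasCrl libraries, against 47.8 to 53.7 CPM in WT, and Acot7 read 15.7 and 16.9 against 21.1 to 25.9 CPM. Acot12 separated the strains, with 330 CPM in DBA_2J, inside the WT range, and 205 CPM in 129S2_SvPasCrl, 1.63-fold under the WT mean. Acot13 read 106 and 111 CPM, both within the WT range. Acot5 stayed near the limit of measurement, at 26 and 35 counts. A strain library was outside the WT range for 6 members in DBA_2J and 8 in 129S2_SvPasCrl. Outside on either side lay 72.5% and 64.7% of all tested genes. All of those members lay below the range, and the share of all tested genes below it was not counted. The summed level was 369 CPM per kb in DBA_2J and 348 in 129S2_SvPasCrl, and the cytosolic share 39.7% and 32.3%, under its WT range of 47.1% to 52.7%. That direction depended on the class of Acot13: counted as cytosolic, it gave shares of 81.6% and 78.8%, above the WT range of 73.8% to 77.9%. With CPM not divided by length, and Acot13 as mitochondrial, DBA_2J lay inside the WT range (63.2%, against 58.5% to 63.9%) and 129S2_SvPasCrl under it (52.8%).

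**Figure D4:**
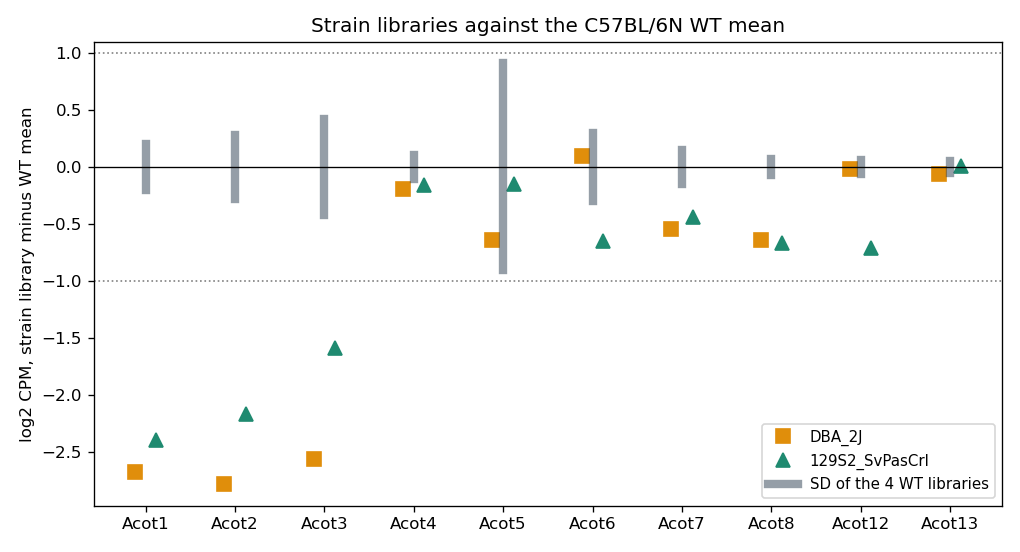
Log2 CPM of the single DBA_2J (squares) and 129S2_SvPasCrl (triangles) libraries minus the mean of the 4 WT libraries of C57BL/6N (y axis), for each member; grey bars span 1 SD of the WT libraries to either side and dotted lines mark a difference of 1. Acot1, Acot2 and Acot3 lie between −2.78 and −1.58, and all other members lie between −0.71 and 0.10.

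Promoter sequence is shown for Acot1, Acot2 and Acot3, which shared this strain pattern, and for their neighbour Acot4, which did not. Each line is the 250 bases before a RefSeq start of the gene (GRCm38.p6, plus strand). They lie at chr12:83987611-83987860 for Acot2, chr12:84009252-84009501 for Acot1, chr12:84038129-84038378 for Acot4 and chr12:84051894-84052143 for Acot3. Acot3 had a second entry, chr12:84051901-84052150, which ends just before the start of the counted gene and is not shown. Capitals mark the half-site AGGTCA on either strand, the unit of the response element bound by PPAR receptors:
Acot2: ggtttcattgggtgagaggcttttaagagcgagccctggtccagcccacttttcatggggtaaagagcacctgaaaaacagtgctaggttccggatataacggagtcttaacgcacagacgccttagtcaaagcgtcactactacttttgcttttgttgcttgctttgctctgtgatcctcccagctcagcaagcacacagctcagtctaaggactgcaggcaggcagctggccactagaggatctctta
Acot1: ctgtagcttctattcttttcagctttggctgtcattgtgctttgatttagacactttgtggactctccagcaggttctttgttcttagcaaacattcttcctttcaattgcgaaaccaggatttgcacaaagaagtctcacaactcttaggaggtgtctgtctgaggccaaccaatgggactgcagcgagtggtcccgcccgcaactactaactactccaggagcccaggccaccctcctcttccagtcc
Acot4: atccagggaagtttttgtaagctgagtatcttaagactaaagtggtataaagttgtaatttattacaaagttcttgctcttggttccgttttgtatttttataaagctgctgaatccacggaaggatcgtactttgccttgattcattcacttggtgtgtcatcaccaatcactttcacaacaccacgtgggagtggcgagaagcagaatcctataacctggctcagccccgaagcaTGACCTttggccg
Acot3: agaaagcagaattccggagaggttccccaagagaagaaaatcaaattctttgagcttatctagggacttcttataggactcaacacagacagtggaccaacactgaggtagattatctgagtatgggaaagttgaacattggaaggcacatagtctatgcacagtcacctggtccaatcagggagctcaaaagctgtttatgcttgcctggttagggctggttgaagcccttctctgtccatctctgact

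The half-site was found in the Acot4, Acot5 and Acot12 windows, 3 of the 8 members with a promoter entry, and not in those of Acot1, Acot2, Acot3, Acot7 and Acot8, and 14.0% of 32851 promoter windows of the same length held it on either strand. Its direct repeat, AGGTCA then any 1 base then AGGTCA, which contains the half-site, was in 0.03% of all windows and in none of those of the same 8 members. A match is a description of the letters in these windows only.

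Other genes of the acyl-CoA pathway were compared as lists. The list of 30 tested PPARα target genes, which also holds the receptor gene Ppara, had 1 gene called higher and 2 lower in KO. Those counts do not set the list apart from the background of 6.32% higher and 4.68% lower. Its median log2 fold change was −0.04, but single genes moved in both directions, Plin2 by 1.11 and Acaa1b by −0.46. In the strain libraries 18 of the 30 lay under the WT mean by a log2 difference of 1 or more in both, against 3.2% of all tested genes. The lipid droplet coat gene Plin2 read 15.9 CPM in DBA_2J and 25.3 CPM in 129S2_SvPasCrl, against 376 ± 143 CPM in WT and 805 ± 326 CPM in KO (SD, n = 4 each). The peroxisomal thiolase gene Acaa1b read 247 and 449 CPM against 1434 ± 277 in WT and 1043 ± 100.5 in KO.

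Low values in the strain libraries thus extended from Acot1, Acot2 and Acot3 to many genes of that list. Summed adipocyte markers were also lower there, at 47.1 and 50.0 CPM against 83.3 to 228 CPM in WT and 80.0 to 189 CPM in KO, with none of the 8 at 0. Of the 8 adipocyte markers, 6 were lower by a log2 difference of 1 or more in both, against 3.2% of tested genes. So were 3 of 6 tested hepatocyte markers and 7 of 24 genes of peroxisomal acyl-CoA handling, a list taken up below. It was 3 of 20 acyl-CoA synthetase genes, 0 of 13 other thioesterases and 0 of 14 proximal tubule markers. Summed hepatocyte markers read 84.4 and 336 CPM against 388 to 519 CPM in WT. All 6 tested ones were lower by a log2 difference of 1 or more in DBA_2J. In 129S2_SvPasCrl 3 were lower and 1 higher by as much. The higher one was Ttr, at 215 CPM against a mean of 74.8 CPM in WT. Summed markers of the proximal tubule were higher, at 24220 and 22994 CPM against 18843 to 19654 CPM in WT. Of these 14 markers, 4 in DBA_2J and 3 in 129S2_SvPasCrl were higher by a log2 difference of 1 or more. None was lower by as much, but not all rose: Slc22a12 read 1895 and 1683 CPM, against a mean of 3059 CPM in WT. The part of these cell type markers in the strain differences was not tested.

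Between genotypes both Plin2 and Acaa1b were called. Acaa1b fell (log2 fold change −0.46, SE 0.12; edgeR adjusted p = 0.0359) and Plin2 rose (1.11, SE 0.30; 0.0377). Each call was lost in most fits with 1 library left out (held in 2 of 8 for Acaa1b and 3 of 8 for Plin2; adjusted p up to 0.0834 and 0.104 in edgeR).

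Of 13 tested genes of other thioesterases and related acyltransferases, 3 rose and 2 fell in KO (median log2 fold change −0.07), against 6.32% of all tested genes called higher and 4.68% called lower. Acot9, a mitochondrial thioesterase, rose from 34.7 ± 1.90 to 44.7 ± 2.85 CPM (0.37, SE 0.07; edgeR adjusted p = 0.0054), and Ppt1, the lysosomal palmitoyl-protein thioesterase, from 88.0 ± 2.92 to 107 ± 6.03 CPM (0.29, SE 0.06; 0.00897). Hibch, the mitochondrial hydrolase of valine breakdown, fell from 68.6 ± 3.93 to 53.5 ± 1.30 CPM (−0.35, SE 0.06; 0.00281). Those 3 calls held in all 8 fits with 1 library left out. Them7 also fell (−0.29, SE 0.07; edgeR adjusted p = 0.0239), held in 6 of 8.

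Of 24 genes of peroxisomal acyl-CoA handling other than Ehhadh, Acaa1b again among them, 8 fell and none rose (median −0.25), against 4.68% of all genes called lower. Eci3, an enoyl-CoA isomerase gene, went from 262 ± 28.0 to 176 ± 20.8 CPM and the racemase gene Amacr from 290 ± 40.1 to 196 ± 24.8 CPM. The oxidase gene Acox3 fell by 0.31 on the log2 scale (SE 0.05) and the thiolase gene Acaa1a by 0.38 (SE 0.09). With 1 library left out, the calls of Eci3, Amacr and Acox3 held in all 8 fits and that of Acaa1a in 7. Those of Acox2 held in 5 fits, and those of Acaa1b, Scp2 and Phyh in 2 each. The 14 proximal tubule markers had a similar median, −0.24. Of 20 acyl-CoA synthetase genes, whose enzymes make the substrates of the thioesterases, 6 fell and 1 rose (median −0.24), against the same 4.68% lower and 6.32% higher over all genes. Acsf2 rose from 35.7 ± 5.25 to 72.9 ± 13.7 CPM, while Acsm1 fell from 156 ± 16.3 to 105 ± 14.2 CPM, Slc27a2 from 5280 ± 240.2 to 4232 ± 226 CPM and Acsl3 from 23.4 ± 3.03 to 17.6 ± 0.431 CPM. With 1 library left out, the calls of Acsf2, Acsm1 and Slc27a2 held in all 8 fits and that of Acsl3 in 7. Those of Acsm3, Acss2 and Slc27a1, which also fell, held in 4, 2 and 1. The 5 peroxisomal thioesterases had no called member in edgeR, and the peroxisomal list had 8 called of 24. With 5 genes, no call cannot be told apart from the 11% called over all tested genes. DESeq2 called 1 of the 5, Acot6 (adjusted p = 0.0271). A difference between the shares of the 2 groups was not tested.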

How the data were processed

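Libraries of polyA-captured kidney RNA, 10 in all, were read from 1 end, per the labels' protocols. The submitters' processing notes name STAR, featureCounts and edgeR and the builds mm10 and GRCm38. Per the file headers, the counts were made by featureCounts 1.5.2 from primary alignments on exons of the UCSC mm10 genes, which gave a read to every gene it overlapped and used no strand option. The authors deposited raw counts per library, a joined count matrix, which equalled all 10 single tables, and normalized log2 values of 13645 genes; the filter behind that number is not stated in those sources. Exon length per gene is from the same headers. No column was left unmapped.

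The genotype test used the counts of 8 libraries, KO and WT, in edgeR 4.0.16 (under R 4.3.3; filterByExpr, TMM, glmQLFit, glmQLFTest on genotype), with Benjamini-Hochberg adjustment over 15547 genes and calls under 0.05. The standard error is the log2 fold change divided by the square root of F, and 95% intervals use the t quantile at the degrees of freedom of that test. The biological coefficient of variation was 12.3%. The smallest total was 19790430 counts. Printed CPM use TMM factors over all 10 libraries (0.948 to 1.03), and strain differences log2 CPM with a prior count of 2. Every pair of replicates differed by more than sampling noise (smallest chi-square divided by its degrees of freedom 10.9). Replicate numbers are names in accession order, so no samples were paired. Alternatives were DESeq2 1.42.0, limma 3.58.1 on the deposited log2 values, other scalings, no filter, thinning, title form, left-out libraries and summed near-identical genes. The edgeR script was tested on simulated data.

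The members and gene lists were chosen with earlier results of these data known. Named genes are the 10 members, Ehhadh and up to 4 called genes per pathway list by smallest p. The genes nearest in pattern to the 3 members with the smallest p are named too. The overlapping gene 4833422C13Rik, Gm49366, Slc22a12, Ttr, Ppara, Acox2, Scp2, Phyh, Acsm3, Acss2, Slc27a1 and Baat were named after their values were seen. So were, in the closing observations, Acot10, Acot11, Acnat1, Acnat2 and Them6. One gene that the rule names is not reported here. Lists of adrenal, skeletal muscle, podocyte and leukocyte markers had 0, 0, 0 and 1 called gene (Csf1r, lower), with 1, 1, 5 and 6 tested; medians were −0.29, −0.29, 0.18 and 0.10. The adipocyte and hepatocyte lists had 0 called of 8 and 6 (medians −0.36 and −0.48). Shared windows and alignments came from GENCODE M21 transcripts, and promoters from RefSeq (8 of 10 members matched).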

Additional observations from a re-analysis of the deposited data

How the results depend on the processing

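The count of 1 called member was 0 without a filter on low counts, in animals with a leading E alone and after thinning to the smallest total, 2 in DESeq2 (Acot12 and Acot6), and 0 to 1 with 1 library left out. Where it was 1 with a library left out or in animals without a leading E, the member was Acot3 or Acot6 and not Acot12. The log2 fold change of Acot12 stayed between −0.23 and −0.17 in all alternatives. Of 186 values of single members under alternatives, 151 kept direction and side of the threshold. Signs changed for the members named next, and none of those values passed the threshold. In animals without a leading E, Acot1 read 0.085, Acot4 0.041, Acot7 0.045 and Acot8 0.038, and in those with it Acot2 read −0.14. Acot4 read 0.0029 without a filter and 0.0044 after thinning. With 1 library left out, Acot1 ran from −0.11 to 0.083, Acot4 from −0.049 to 0.024 and Acot7 from −0.13 to 0.0085. Summed counts of Acot1 and Acot2 gave 0.017, and those of Acot3 to Acot6 −0.14, which changes the sign of Acot1, Acot5 and Acot6. That last value mixes genes of opposite sign.

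Of all genes, 1710 were called (982 higher, 728 lower). Animals with a leading E alone gave 147 (96 and 51), and those without it alone gave 1742 (936 and 806). Title form as a term gave 2050 (1157 and 893). Leaving out 1 library gave 1011 to 1637 (611 to 914 higher, 385 to 723 lower). With plain CPM, cytosolic shares were 60.3% in KO and 61.7% in WT and mitochondrial shares 23.3% and 21.6%. With Acot13 as cytosolic they were 74.7% and 75.8%, and 9.92% and 8.64%. Peroxisomal shares kept within 1 SD. All 20 strain differences kept within 1 SD with a prior count of 0.5. Upper quartile scaling gave 832 higher and 938 lower genes. For all results not explained by fewer samples, the cause was not tested. Depth limits Acot5, with as few as 11 counts, and strains have 1 library each.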

Other observations

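Acot11, a thioesterase with a lipid-binding domain that is outside the 10 members, ran against the strain pattern of Acot1, Acot2 and Acot3. It read 226 CPM in DBA_2J and 236 CPM in 129S2_SvPasCrl, against a mean of 140 CPM in WT and 114 CPM in KO, and did not pass between genotypes (log2 fold change −0.29, SE 0.08; edgeR adjusted p = 0.0512). Them7 was likewise high in the strain libraries, at 320 and 275 CPM against 142 CPM in WT, and Acot9 read 75.7 and 51.3 CPM against 34.7 CPM in WT. Others on that list were lower in DBA_2J: Acnat1 read 24.8 against 90.0 CPM in WT, Acnat2 44.8 against 113 CPM, Them6 12.1 against 26.6 CPM and Baat 0.221 against 0.578 CPM. By a log2 difference of 1 or more, 4 of the 13 tested genes were lower and 3 higher in DBA_2J, and 0 were either in 129S2_SvPasCrl. Acot10, an intronless relative of Acot9, was barely counted, with means of 0.120 CPM in KO and 0.126 CPM in WT.

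Genes with the nearest pattern were sought by the root mean square difference of log2 CPM, centred over the 10 libraries, for the 3 members with the smallest p. Nearest to Acot12 were Ephx2, which encodes soluble epoxide hydrolase, at 0.088, Serhl at 0.0923 and 2310030G06Rik at 0.0923, where Acot12 itself had an SD of 0.22. Ephx2 read 467 CPM in 129S2_SvPasCrl and 676 CPM in DBA_2J, against means of 754 CPM in WT and 659 CPM in KO. Nearest to Acot6 (SD 0.42) were Ifi47 at 0.18, Mad2l2 at 0.21 and Mast1 at 0.21. Nearest to Acot3 (SD 0.91) were Cybrd1 at 0.27, Hspb7 at 0.28 and Rhox6 at 0.31. Cybrd1 and Rhox6 were little counted, with WT means of 1.23 and 2.73 CPM and 0.129 and 0.295 CPM in DBA_2J. These likenesses are descriptions over 10 libraries, with no test.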
